A study of Mus musculus with 20 samples.

Results

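The subject is the part of the doxycycline (dox) response of mouse embryonic stem cells (ESC) that differs between cells given an active Bmal1 and cells given a dominant-negative Bmal1. It was read in 8 ESC libraries of the 20 in the series, chosen by their labels: 2 clones of the Clock/Bmal1 line (clones 1 and 7) and 2 clones of the Clock/Bmal1DN line (clones 5 and 6), each with dox and untreated. All are KY1.1 ESC in which dox switches on tetO transgenes, either Clock with Bmal1 or Clock with Bmal1DN, so the Clock transgene, dox itself and the transgene system are common to both lines. Treated ESC received 500 ng/mL dox for 6 hours. A control line without these transgenes gave 1 library with dox and 1 untreated. The other libraries are induced presomitic mesoderm (iPSM) colonies grown from other ESC (E14TG2a with a Hes7-promoter luciferase reporter), treated with 1000 ng/mL dox for 2 hours, and 8 of them carry the same pairs of transgenes. Each library is total RNA counted over whole gene bodies, so reads of the transgenes add to the counts of Clock and Arntl, the mouse symbol of Bmal1. The clones are single derived lines, so the errors below rest on 2 clones per line. They are also moderated over all transcripts, so they are not the observed spread between the clones for a single gene. In these bulk samples, fewer cells expressing a gene and less RNA per cell cannot be told apart.

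CLOCK and BMAL1 are bHLH-PAS proteins that bind DNA as a pair, at E-boxes, and activate transcription. Among their known targets are their own repressors, the Per and Cry genes, and genes of further loops such as Nr1d1 and the PAR bZIP factors Dbp, Tef and Hlf. Undifferentiated ESC are known to lack a running circadian clock, which appears as the cells differentiate. A dominant-negative form of BMAL1 is one that is meant to interfere with the normal protein, here expressed together with CLOCK.

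Library totals were 40.8 and 41.1 M (mega) counts with dox and 56.3 and 57.3 M untreated in the Clock/Bmal1 clones, so depth moved with treatment in that line. In the Clock/Bmal1DN clones they were 43.7 and 40.3 M with dox and 42.7 and 47.5 M untreated. Summed over 8 ESC markers (Pou5f1, Nanog, Esrrb and others), the level was 1680 to 2164 CPM (counts per M counts of the library, TMM-normalised) in the 8 libraries, and none of the 8 was at 0 in any of them. Summed over 9 fibroblast feeder markers, all of them detected in each library, it was 107 and 234 CPM with dox and 82.3 and 250.02 CPM untreated in Clock/Bmal1 clones 1 and 7. In Clock/Bmal1DN clones 5 and 6 it was 95.7 and 62.8 CPM with dox and 92.1 and 479 CPM untreated. Untreated clone 6 thus had the highest sum of feeder markers among the 8 libraries. All 9 markers were lower with dox in clone 6 and 2 of 9 in clone 5.

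Arntl and Clock, the genes of the transgenes, were high in every treated library of both lines. Arntl stood at 2276 and 4240 CPM with dox in Clock/Bmal1 clones 1 and 7, against 44.4 and 48.9 CPM untreated. In Clock/Bmal1DN clones 5 and 6 it stood at 1612 and 4088 CPM with dox, against 53.9 and 44.03 CPM untreated. Clock stood at 723 and 589 CPM with dox in the Clock/Bmal1 clones, against 38.7 and 60.0 CPM untreated, and at 324 and 1507 CPM with dox in the Clock/Bmal1DN clones, against 35.2 and 39.4 CPM untreated. For both genes every treated library lay above every untreated one, and the treated ranges of the lines overlapped. The dox effect (log2 of dox over untreated, fitted with clone as a block) of Arntl was 6.06 with Clock/Bmal1 and 5.72 with Clock/Bmal1DN, a difference of 0.34 with a 95% interval of -0.83 to 1.51. That of Clock was 3.76 and 4.23, a difference of -0.47 with an interval of -1.90 to 0.95. The Clock/Bmal1DN effect of Clock missed the threshold in edgeR (adjusted p = 0.249) and passed in DESeq2 (adjusted p = 3.86e-05), and the other 3 effects passed in both. Among clones, Clock/Bmal1DN clone 5 had the smallest effects on Arntl and Clock (4.90 and 3.20) and clone 6 the largest (6.54 and 5.26). The control line held 37.8 CPM of Arntl with dox and 39.3 CPM untreated.

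The central comparison asks which transcripts respond to dox differently when the induced Bmal1 is active. Of 20491 transcripts tested out of 55421, 16 had a higher dox effect with Clock/Bmal1 than with Clock/Bmal1DN (0.0781%) and none a lower one (0%), by edgeR's quasi-likelihood test at an adjusted p under 0.05. At an unadjusted p under 0.05 there were 1091 higher (5.32%) and 334 lower (1.63%), and DESeq2 called 172 higher and 4 lower at its adjusted threshold. The 16 differences ran from 2.22 to 6.70 on the log2 scale. All 16 rose with dox in the Clock/Bmal1 clones (148 of all transcripts did, 0.722%), with effects from 1.49 to 6.47. None of the 16 passed in the Clock/Bmal1DN clones (adjusted p from 0.881 to 0.995), where their effects ran from -2.43 to 0.96. In all 16 both Clock/Bmal1 clones lay above both Clock/Bmal1DN clones, with a smallest gap of 1.99 log2 units. Clones stood in that order without overlap in 18.9% of all transcripts, and since the 16 were called on the same difference, their order is a description. No call survived the removal of either Clock/Bmal1 clone, which leaves that line with 1 clone: adjusted p was 0.103 to 0.959 without clone 1 and 0.0818 to 0.292 without clone 7, with all 16 differences still positive. All 16 calls were kept without either Clock/Bmal1DN clone, but the counts moved far: 1081 transcripts were higher and 159 lower without clone 5, and 270 higher and 21 lower without clone 6.

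**Figure D1:**
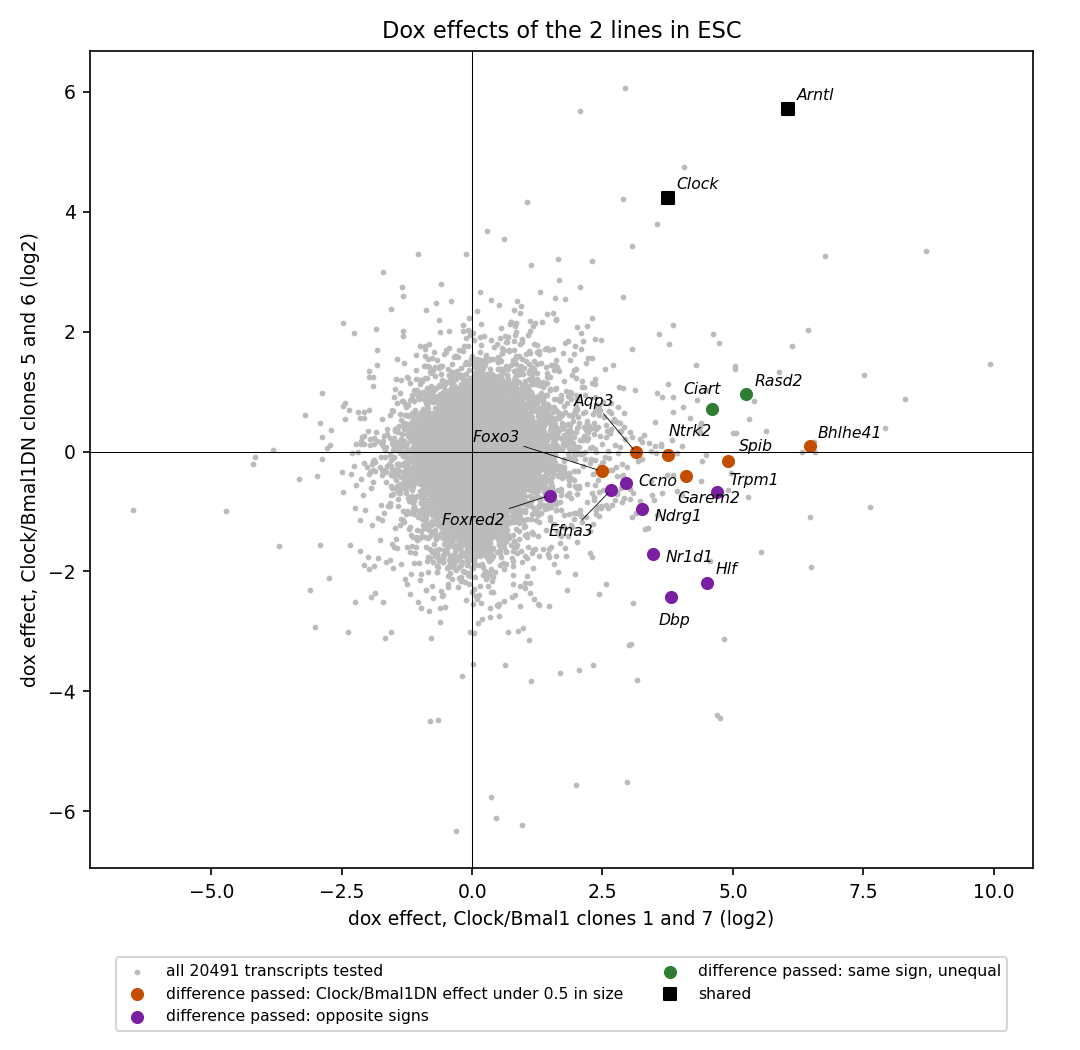
Fitted dox effect (log2 of dox over untreated) in the Clock/Bmal1 clones on the horizontal axis and in the Clock/Bmal1DN clones on the vertical axis, for 20491 transcripts in grey. The 16 coloured transcripts whose difference passed lie to the right at 1.49 to 6.47 and between -2.43 and 0.96 on the vertical axis, while Arntl and Clock (squares) are high on both.

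The 16 were sorted by their fitted effects. In 8 the effects had opposite signs, each at least 0.5 in size with both clones of a line on the same side of 0 (Hlf, Dbp, Nr1d1, Ndrg1, Trpm1, Ccno, Efna3 and Foxred2). In 6 the Clock/Bmal1DN effect was under 0.5 in size (Bhlhe41, Spib, Garem2, Ntrk2, Aqp3 and Foxo3). In 2 both effects were positive and at least 0.5 (Rasd2 and Ciart). Shared responses are described further on. Since no Clock/Bmal1DN effect of the 16 passed, "opposite" here describes fitted values. The Clock/Bmal1DN effect was negative in 13 of the 16, against 49.5% of all transcripts, and negative in both of its clones in 9, against 20.9%. These calls select for a low Clock/Bmal1DN effect, so nothing is read from those shares.

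Among the opposite genes, 3 are outputs or loop members of the circadian clock. Dbp, a PAR bZIP transcription factor (mm10 chr7:45705088-45710203, plus strand), stood at 50.9 and 55.7 CPM with dox in Clock/Bmal1 clones 1 and 7, against 3.77 and 3.82 CPM untreated. In Clock/Bmal1DN clones 5 and 6 it stood at 2.26 and 0.572 CPM with dox, against 7.64 and 5.70 CPM untreated. Treated Clock/Bmal1 libraries were the highest and treated Clock/Bmal1DN libraries the lowest, with all untreated libraries between them. Dbp rose 14.02-fold with Clock/Bmal1, its Clock/Bmal1DN effect was -2.43 (unadjusted p = 0.000129, edgeR adjusted p = 0.881), and the difference was 6.24 ± 0.498 (SE, adjusted p = 0.00864). By DESeq2 the Clock/Bmal1DN effect of Dbp passed on its own (-2.45, adjusted p = 3.83e-08). The control line held 7.59 CPM of Dbp with dox and 6.45 CPM untreated.

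Hlf, another PAR bZIP factor (chr11:90336536-90390895, minus strand), showed the highest difference of all that passed. It stood at 19.3 and 12.1 CPM with dox in the Clock/Bmal1 clones, against 0.670 and 0.671 CPM untreated. In the Clock/Bmal1DN clones it stood at 0.163 and 0.143 CPM with dox, which are 7 and 6 counts, against 0.921 and 0.518 CPM untreated. As for Dbp, every treated Clock/Bmal1 library lay above and every treated Clock/Bmal1DN library below all 4 untreated ones. Hlf rose 22.8-fold with Clock/Bmal1, its Clock/Bmal1DN effect was -2.19 (unadjusted p = 0.000777, edgeR), and the difference was 6.70 ± 0.525 (adjusted p = 0.00864). In the control line, too, Hlf was lower with dox, at 0.191 CPM against 1.47 CPM untreated, from 1 library each. Nr1d1 encodes the nuclear receptor REV-ERB alpha, which represses Arntl (chr11:98767932-98775333, minus strand). Its level was 23.0 and 15.9 CPM with dox in the Clock/Bmal1 clones, against 1.66 and 1.79 CPM untreated. Clock/Bmal1DN clones gave 0.886 and 0.429 CPM with dox, against 1.89 and 2.29 CPM untreated. Again the untreated clones, at 1.66 to 2.29 CPM, lay between the treated ones of the lines. Nr1d1 rose 11.1-fold with Clock/Bmal1, its Clock/Bmal1DN effect was -1.70 (unadjusted p = 0.00217, edgeR), and the difference was 5.17 ± 0.527 (adjusted p = 0.0213). With an effect size of at least 1 asked of each line in place of 0.5, Dbp, Hlf and Nr1d1 were the 3 opposite genes left.

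The other 5 opposite genes are not core clock genes. Ndrg1, a hypoxia-responsive gene of cell differentiation, stood at 163 and 91.7 CPM with dox in the Clock/Bmal1 clones, against 13.1 and 12.6 CPM untreated. In the Clock/Bmal1DN clones it stood at 9.89 and 3.43 CPM with dox, against 12.6 and 10.4 CPM untreated. The negative Clock/Bmal1DN effect was mostly that of clone 6 (-1.59, against -0.35 in clone 5), and the difference was 4.21 ± 0.463 (edgeR adjusted p = 0.0277). Feeder markers were also lower with dox in clone 6, whose untreated Ndrg1 level (10.4 CPM) was the lowest of the untreated clones. The part of feeder RNA was not tested. Trpm1, a cation channel of retinal bipolar cells and melanocytes, stood at 26.1 and 13.95 CPM with dox against 0.811 and 0.671 CPM untreated with Clock/Bmal1, and at 1.45 and 0.429 CPM with dox against 1.57 and 1.12 CPM untreated with Clock/Bmal1DN. Treated and untreated Clock/Bmal1DN libraries overlapped for Trpm1, and the control line held 0.806 CPM with dox and 0.111 CPM untreated. Its difference was 5.37 ± 0.527 (edgeR adjusted p = 0.0186).

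Ccno encodes cyclin O, needed for multiciliated cells. It stood at 35.2 and 48.4 CPM with dox against 5.11 and 5.62 CPM untreated with Clock/Bmal1, and at 2.38 and 3.26 CPM with dox against 3.59 and 4.53 CPM untreated with Clock/Bmal1DN. Its clones moved closely together within each line, at 2.77 and 3.10 with Clock/Bmal1 and -0.59 and -0.47 with Clock/Bmal1DN, and the control line gave -0.44. The difference of Ccno was 3.48 ± 0.323 (edgeR adjusted p = 0.0155). Efna3, an ephrin ligand of Eph receptors, stood at 34.1 and 32.6 CPM with dox against 4.73 and 5.89 CPM untreated with Clock/Bmal1, and at 5.64 and 3.38 CPM with dox against 6.58 and 7.17 CPM untreated with Clock/Bmal1DN. Its difference was 3.31 ± 0.391 (edgeR adjusted p = 0.0377). Foxred2, a flavoprotein of the endoplasmic reticulum, had the smallest difference of the 16, at 2.22 ± 0.272 (edgeR adjusted p = 0.0429). It stood at 77.4 and 60.5 CPM with dox against 25.2 and 23.7 CPM untreated with Clock/Bmal1, and at 16.3 and 13.4 CPM with dox against 25.4 and 23.9 CPM untreated with Clock/Bmal1DN. Untreated Foxred2 levels were alike in all 4 clones, and the treated lines moved to either side of them.

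**Figure D2:**
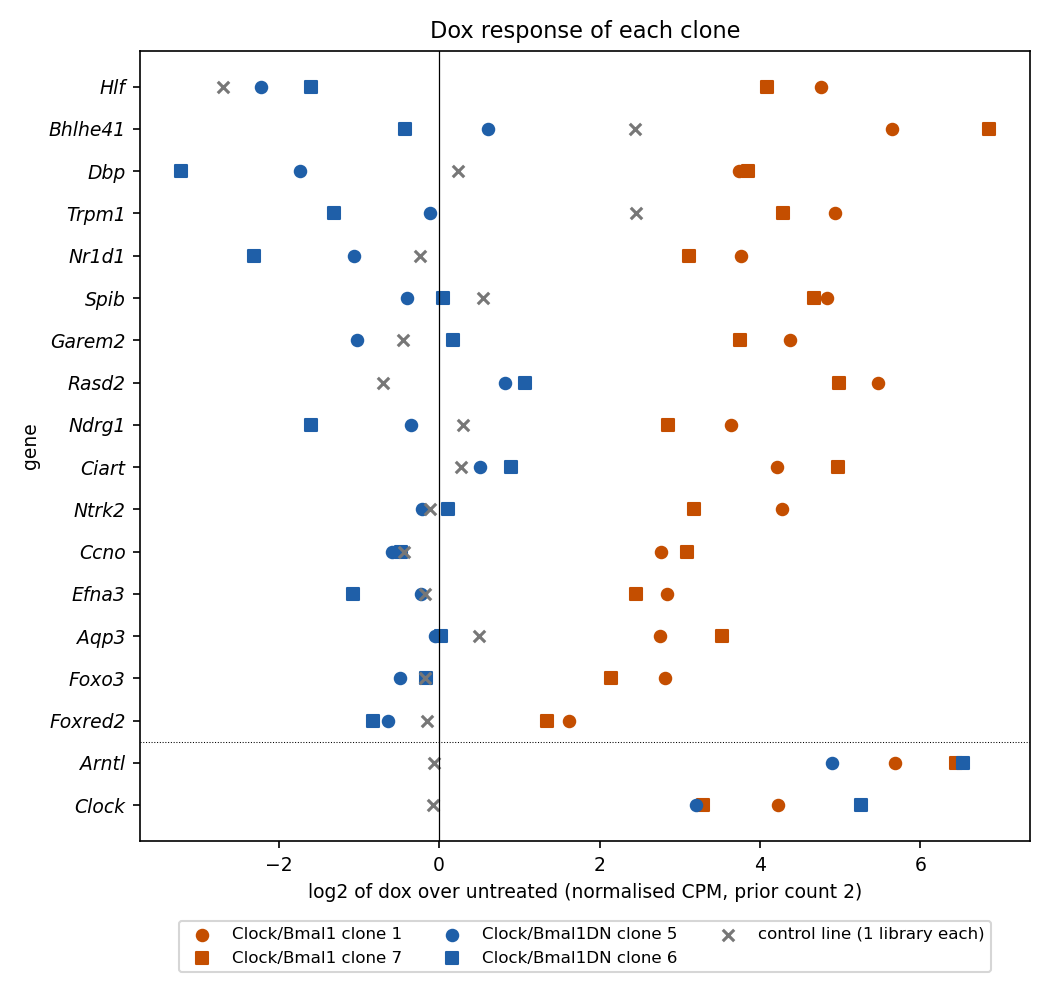
Log2 of dox over untreated (normalised CPM with a prior count of 2) in each clone, for the 16 transcripts whose difference passed, in order of that difference, and for the transgenes below the dotted line. Orange points are Clock/Bmal1 clones, blue points Clock/Bmal1DN clones and crosses the control line. In each of the 16 both orange points lie to the right of both blue points, while for Arntl and Clock the colours mix.

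In 6 genes the fitted Clock/Bmal1DN effect was under 0.5 in size, though single clones of Garem2 and Bhlhe41 exceeded it. Bhlhe41, the clock repressor also called Dec2, had the strongest rise with Clock/Bmal1, 88.8-fold. It stood at 15.4 and 13.4 CPM with dox against 0.264 and 0.0725 CPM untreated with Clock/Bmal1, and at 0.373 and 0.262 CPM with dox against 0.230 and 0.367 CPM untreated with Clock/Bmal1DN. The untreated levels rest on few counts, and the difference was 6.38 ± 0.710 (edgeR adjusted p = 0.0277). Spib, an Ets-family transcription factor of B cells, stood at 10.3 CPM with dox in each Clock/Bmal1 clone against 0.317 and 0.362 CPM untreated, and at 0.373 and 0.763 CPM with dox against 0.506 and 0.734 CPM untreated with Clock/Bmal1DN. Only the treated Clock/Bmal1 libraries of Spib exceeded 1 CPM, and the difference was 5.08 ± 0.478 (edgeR adjusted p = 0.0155).

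Garem2 and Ntrk2 belong to growth factor signalling. Garem2, an adaptor that binds Grb2 and regulates Erk, stood at 26.0 and 19.6 CPM with dox against 1.22 and 1.41 CPM untreated with Clock/Bmal1, and at 0.793 and 1.74 CPM with dox against 1.66 and 1.53 CPM untreated with Clock/Bmal1DN. Its Clock/Bmal1DN clones moved in different directions (-1.02 and 0.18), and the difference was 4.51 ± 0.508 (edgeR adjusted p = 0.0279). Ntrk2, which encodes TrkB, the receptor of BDNF, stood at 31.5 and 15.1 CPM with dox against 1.59 and 1.63 CPM untreated with Clock/Bmal1, and at 1.54 and 2.10 CPM with dox against 1.80 and 1.94 CPM untreated with Clock/Bmal1DN. Its difference was 3.81 ± 0.467 (edgeR adjusted p = 0.0429), with the larger response in clone 1.

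Aqp3, a channel for water and glycerol, stood at 58.3 and 49.6 CPM with dox against 8.64 and 4.28 CPM untreated with Clock/Bmal1, and at 8.93 and 6.15 CPM with dox against 9.25 and 6.02 CPM untreated with Clock/Bmal1DN. The Clock/Bmal1DN effect of Aqp3 was -0.01 and the difference 3.15 ± 0.350 (edgeR adjusted p = 0.0277). Foxo3, a forkhead factor held in check by PI3K-Akt signalling, was the most abundant of the 16 in treated Clock/Bmal1 cells. It stood at 286 and 180 CPM with dox against 40.4 and 40.7 CPM untreated with Clock/Bmal1, and at 35.8 and 42.7 CPM with dox against 50.4 and 47.7 CPM untreated with Clock/Bmal1DN. CPM grows with gene length, so that order of abundance is not one of molecules. Foxo3 rose 5.59-fold with Clock/Bmal1, and the difference was 2.81 ± 0.306 (edgeR adjusted p = 0.0277).

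**Figure D3:**
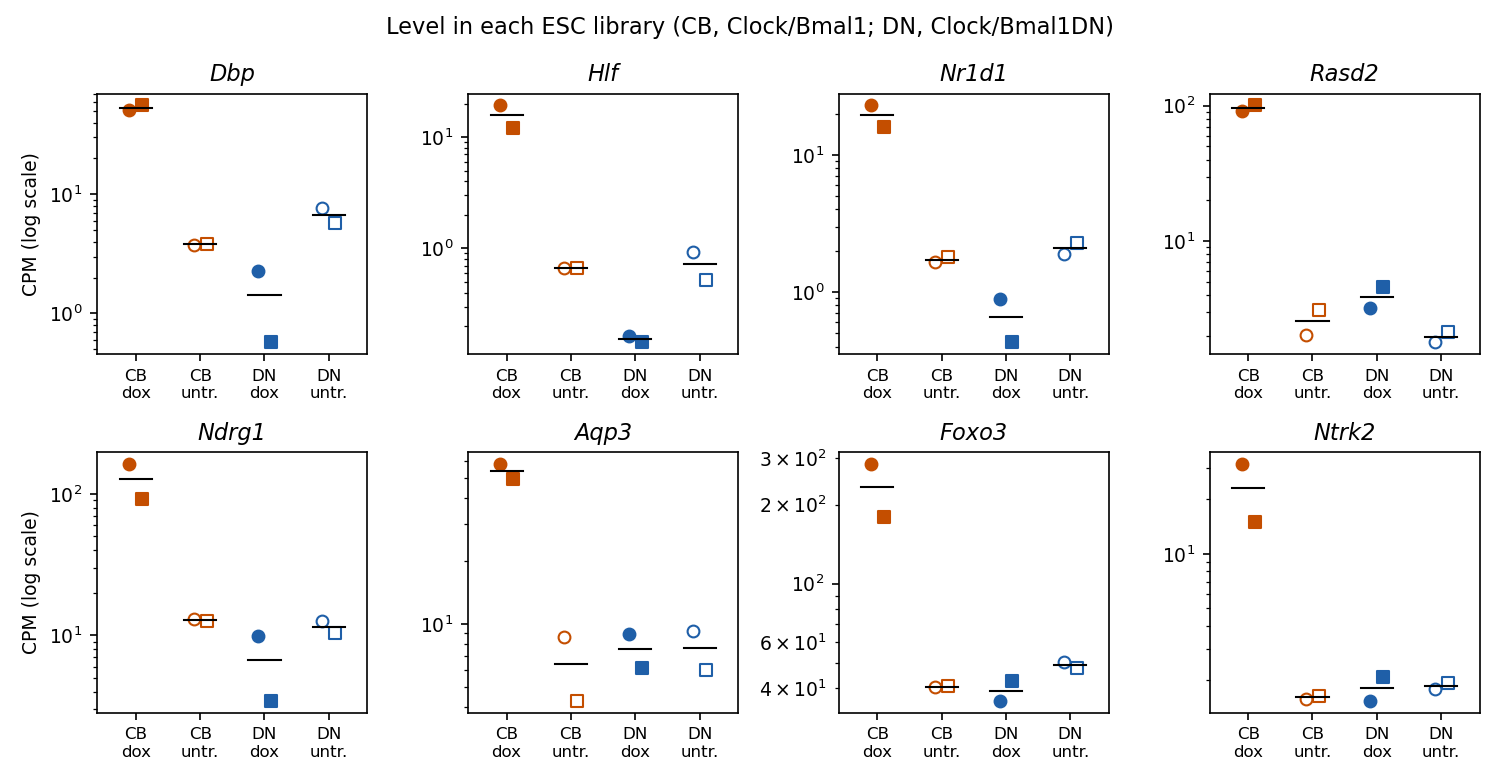
Level (CPM, log scale) of 8 of the 16 genes in each ESC library, with Clock/Bmal1 (CB) in orange and Clock/Bmal1DN (DN) in blue, filled with dox and open when untreated, circles for clones 1 and 5, squares for clones 7 and 6, and a line at the mean. Treated Clock/Bmal1 libraries are the highest in every panel, and treated Clock/Bmal1DN libraries of Dbp, Hlf and Nr1d1 are the lowest.

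In Rasd2 and Ciart the effects had the same sign and unequal size. Rasd2, a small Ras-family GTPase known from the striatum, stood at 91.5 and 100.5 CPM with dox against 2.03 and 3.12 CPM untreated with Clock/Bmal1, and at 3.20 and 4.58 CPM with dox against 1.80 and 2.16 CPM untreated with Clock/Bmal1DN. It rose 38.0-fold with Clock/Bmal1. The Clock/Bmal1DN effect was 0.96 (unadjusted p = 0.00287, edgeR adjusted p = 0.89), or 1.95-fold, while the control line was at 2.25 CPM with dox and 3.67 CPM untreated. The difference was 4.29 ± 0.322 (edgeR adjusted p = 0.00864). Ciart, a circadian repressor also called Chrono, stood at 77.4 and 122 CPM with dox against 4.14 and 3.84 CPM untreated with Clock/Bmal1, and at 7.00 and 7.13 CPM with dox against 4.88 and 3.80 CPM untreated with Clock/Bmal1DN. Its rise with Clock/Bmal1 was 24.3-fold, its Clock/Bmal1DN effect 0.71 (unadjusted p = 0.0198, edgeR) and its difference 3.89 ± 0.353 (edgeR adjusted p = 0.0155). Treated Clock/Bmal1DN libraries of both genes lay above their own untreated ones and far below the treated Clock/Bmal1 ones.

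The perfect E-box CACGTG is the sequence that CLOCK and BMAL1 are known to bind best, and it reads the same on both strands. RefSeq promoter windows of 300 bases (250 before to 50 after a start, build GRCm38.p6, which is mm10) were matched for 15 of the 16 genes, and 5 of the 15 (33.3%) held CACGTG, against 7.15% of all 32851 windows and 11.1% of 13127 matched genes that were tested. They were Ciart with 3 copies, Foxred2 with 2, and Bhlhe41, Garem2 and Trpm1 with 1 each. Trpm1 has 2 windows, and its copy is in the one further downstream (chr7:64185209-64185508). The window at the start of the counted Trpm1 transcript (chr7:64153585-64153884) holds 0 copies. A variant searched on both strands, CACGTT, was in the window of Nr1d1 alone. That is 1 of the 15 genes (6.67%), against 6.15% of matched genes that were tested and 4.68% of all windows. Foxred2 had opposite effects, Ciart effects of the same sign, and Bhlhe41 and Garem2 a fitted Clock/Bmal1DN effect under 0.5 in size. The windows of these 4 genes are shown to place their E-boxes. Capitals mark CACGTG, and each is written 5′ to 3′ on the strand of its gene: Ciart chr3:95882179-95882478 (minus), Foxred2 chr15:77956673-77956972 (minus), Bhlhe41 chr6:145865371-145865670 (minus) and Garem2 chr5:30104946-30105245 (plus).
Ciart: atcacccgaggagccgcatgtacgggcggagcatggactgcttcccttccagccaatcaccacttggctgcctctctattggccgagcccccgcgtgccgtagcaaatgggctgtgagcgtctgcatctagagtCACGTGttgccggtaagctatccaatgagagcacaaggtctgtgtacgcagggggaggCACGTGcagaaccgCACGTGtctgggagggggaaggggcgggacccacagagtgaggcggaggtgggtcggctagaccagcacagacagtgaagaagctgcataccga
Foxred2: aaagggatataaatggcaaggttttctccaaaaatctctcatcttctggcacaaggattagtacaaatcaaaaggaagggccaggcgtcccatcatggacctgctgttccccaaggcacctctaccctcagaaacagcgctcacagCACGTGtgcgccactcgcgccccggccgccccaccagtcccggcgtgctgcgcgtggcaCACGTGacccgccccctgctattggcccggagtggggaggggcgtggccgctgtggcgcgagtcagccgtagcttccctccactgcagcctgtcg
Bhlhe41: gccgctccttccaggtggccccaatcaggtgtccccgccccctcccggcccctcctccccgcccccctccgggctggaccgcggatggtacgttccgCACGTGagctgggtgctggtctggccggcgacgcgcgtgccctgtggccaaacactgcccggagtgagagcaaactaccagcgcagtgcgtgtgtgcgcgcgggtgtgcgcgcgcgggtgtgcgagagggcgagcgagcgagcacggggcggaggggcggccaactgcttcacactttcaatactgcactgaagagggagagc
Garem2: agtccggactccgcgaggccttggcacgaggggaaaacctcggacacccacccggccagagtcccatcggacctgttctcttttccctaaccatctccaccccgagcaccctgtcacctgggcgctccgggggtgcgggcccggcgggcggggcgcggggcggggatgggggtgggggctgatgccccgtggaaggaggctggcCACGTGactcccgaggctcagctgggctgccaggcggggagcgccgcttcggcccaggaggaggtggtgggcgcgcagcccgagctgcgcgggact
The copies start 116, 58 and 44 bases before the start of Ciart, 104 and 45 before that of Foxred2, 153 before that of Bhlhe41 and 46 before that of Garem2. Among matched genes whose Clock/Bmal1 clones both lay at least 1 log2 unit above both Clock/Bmal1DN clones, 77 of 267 (28.8%) held CACGTG, and among those with the reverse order 6 of 73 (8.22%) did. These shares are descriptions of letters in a window, and no factor binding was measured.

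The threshold fell within a dense run of genes. Just inside it were Foxred2 and Ntrk2, at an edgeR adjusted p of 0.0429 each, and just outside it Pcsk4, a proprotein convertase of germ cells (3.34 ± 0.430, adjusted p = 0.0523), and the PAR bZIP factor Tef (2.24 ± 0.290, adjusted p = 0.0523). With Pcsk4 and Tef included, 28 transcripts with a higher and 1 with a lower effect had an adjusted p from 0.05 to 0.1. Tef stood at 155 and 148 CPM with dox against 21.8 and 29.0 CPM untreated with Clock/Bmal1, and at 54.1 and 45.3 CPM with dox against 37.0 and 40.8 CPM untreated with Clock/Bmal1DN. Per1, a clock repressor, stood at 56.5 and 21.5 CPM with dox against 5.40 and 3.24 CPM untreated with Clock/Bmal1, and at 4.10 and 5.05 CPM with dox against 4.05 and 3.63 CPM untreated with Clock/Bmal1DN. Both genes rose with Clock/Bmal1, but their differences missed the threshold in edgeR, that of Per1 at 2.82 ± 0.371 (adjusted p = 0.0523).

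Per2, its paralog, stood at 21.96 and 10.8 CPM with dox against 0.741 and 0.743 CPM untreated with Clock/Bmal1, and at 0.793 and 2.53 CPM with dox against 1.29 and 1.06 CPM untreated with Clock/Bmal1DN. Its Clock/Bmal1DN clones moved apart (-0.67 and 1.22), and its difference was 4.05 ± 0.682 (edgeR adjusted p = 0.111). Lfng, a glycosyltransferase that modifies Notch receptors, stood at 87.1 and 97.7 CPM with dox against 12.1 and 13.5 CPM untreated with Clock/Bmal1, and at 12.9 and 17.2 CPM with dox against 13.6 and 10.2 CPM untreated with Clock/Bmal1DN. Its difference was 2.51 ± 0.333 (edgeR adjusted p = 0.0523). All 5 of Pcsk4, Tef, Per1, Per2 and Lfng passed in DESeq2 (adjusted p from 4.55e-08 to 9.43e-07).

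The 148 transcripts that rose with Clock/Bmal1 were then followed in the Clock/Bmal1DN libraries, whose dox effect was not used to choose them. The fit was shared, and the filter on low counts can keep a transcript through the treated Clock/Bmal1 libraries alone. For such transcripts, Nmu among them, the Clock/Bmal1DN effect rests on few counts and is not an independent reading. The 148 include Arntl and Clock, the genes of the transgenes. Their median effect was 2.50 with Clock/Bmal1 and 0.157 with Clock/Bmal1DN, against medians over all transcripts of 0.032 and 0.0041. In 100 of the 148 the Clock/Bmal1DN effect was under 0.5 in size (76.4% of all transcripts), in 31, Arntl and Clock among them, it was 0.5 or higher (10.4%) and in 17 it was -0.5 or lower (13.2%). Both Clock/Bmal1DN clones lay above 0 in 46 (23.7% of all) and below 0 in 32 (20.9%). The difference itself passed in 16 of the 148. In the other direction 6 transcripts fell with Clock/Bmal1 (0.0293%). Among them were Vrtn, a gene tied to vertebra number in pigs, and Mycn, a Myc-family factor of proliferating stem cells, both named after their values were seen. Vrtn stood at 3.31 and 9.72 CPM with dox against 19.6 and 36.0 CPM untreated with Clock/Bmal1, and at 15.0 and 20.5 CPM with dox against 15.1 and 17.1 CPM untreated with Clock/Bmal1DN. Its difference of -2.35 ± 0.341 missed the threshold in edgeR (adjusted p = 0.0751) and passed in DESeq2 (adjusted p = 2.16e-06). Mycn stood at 63.0 and 65.9 CPM with dox against 131 and 135 CPM untreated with Clock/Bmal1, and at 130.4 and 137 CPM with dox against 142 and 116 CPM untreated with Clock/Bmal1DN, with a difference of -1.10 ± 0.249 (edgeR adjusted p = 0.298).

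A response counted as shared when the mean of the 2 effects passed, all 4 clones had the same sign, the difference did not pass and the smaller effect was at least 0.5 of the larger. The mean effect passed for 26 transcripts, all of them higher with dox (0.127%), and none lower, with 1975 at an unadjusted p under 0.05 in edgeR. Of the 26, 2 were shared, Arntl and Clock, which are the genes of the transgenes, and 8 had a difference that passed. Without the minimum ratio 14 were shared, among them Per1 (3.06 with Clock/Bmal1 and 0.25 with Clock/Bmal1DN), Tef (2.59 and 0.35) and Onecut1, a homeobox factor of liver and neural cells (5.40 and 0.85). Others of the 14 had larger Clock/Bmal1DN effects, such as Ddn (8.71 and 3.34), Gpx6 (4.62 and 1.96) and Ppp1r1b (4.30 and 1.44), named after their values were seen. Of the 14, only Arntl had a Clock/Bmal1DN effect that passed in edgeR. In the Clock/Bmal1DN line on its own 1 transcript passed in edgeR, Arntl (0.00488%, with 921 at an unadjusted p under 0.05), and DESeq2 called 12. The shared count depends on the fit: under the rule with the ratio it was 37 with DESeq2, 145 with no filter on low counts, 4 without Clock/Bmal1 clone 1, 1660 without Clock/Bmal1DN clone 5 and 20 without Clock/Bmal1DN clone 6.

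Of 21 circadian E-box targets on a list, all tested, 5 had a difference that passed, all higher with Clock/Bmal1 (Hlf, Dbp, Nr1d1, Bhlhe41 and Ciart), against 0.0781% of all transcripts. With Clock/Bmal1 13 of the 21 rose, against 0.722%. Their median effect was 2.40 with Clock/Bmal1 and 0.09 with Clock/Bmal1DN, and the median difference was 2.24. In 14 the Clock/Bmal1 clones lay at least 1 log2 unit above the Clock/Bmal1DN clones, against 2.14% of all transcripts, and DESeq2 called 14 differences. By that gap Lonrf3 alone took the reverse order (0.678% of all transcripts), at -1.63 ± 0.384 (edgeR adjusted p = 0.309). At an unadjusted p under 0.05 in edgeR 15 of the 21 were higher and 2 lower, against 5.32% and 1.63% of all transcripts. Per3, the third Period gene, stood at 17.5 and 15.0 CPM with dox against 5.29 and 3.84 CPM untreated with Clock/Bmal1, and at 2.80 and 4.24 CPM with dox against 4.83 and 6.78 CPM untreated with Clock/Bmal1DN. Like Dbp, Per3 had its highest levels in treated Clock/Bmal1 libraries, and its difference was 2.58 ± 0.343 (edgeR adjusted p = 0.0523). Other repressors rose with Clock/Bmal1 with differences that missed the threshold in edgeR: Bhlhe40 (Dec1) with 2.69 ± 0.393 (adjusted p = 0.0754), Nr1d2 (REV-ERB beta) with 1.91 ± 0.303 (adjusted p = 0.0963) and Cry1 with 1.80 ± 0.295 (adjusted p = 0.104). The 22 other clock components, such as Npas2, Csnk1d and Timeless, had no difference that passed and medians of 0.03 with Clock/Bmal1 and 0.10 with Clock/Bmal1DN. These members of the E-box list and those named below, where they are not among the 16, were chosen after their values were seen.

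Signalling lists gave fewer calls. Of 27 MAPK feedback and FGF genes 2 passed, Rasd2 and Garem2 (0.0781% of all transcripts were higher), and Dusp2, a MAPK phosphatase, was higher without passing (2.40 ± 0.445, edgeR adjusted p = 0.153). No member of the Notch and segmentation clock list passed (29 tested, with 5 higher at an unadjusted p under 0.05, against 5.32% of all transcripts). In that list the clones were apart by at least 1 log2 unit in 4, Lfng, Hes1, Dll1 and Dll4, against 2.14% of all transcripts. Hes1, a Notch effector and repressor, stood at 25.2 and 42.4 CPM with dox against 9.49 and 17.2 CPM untreated with Clock/Bmal1, and at 10.3 and 8.58 CPM with dox against 8.98 and 22.2 CPM untreated with Clock/Bmal1DN. Its treated and untreated ranges did not overlap with Clock/Bmal1 and overlapped with Clock/Bmal1DN. Of 28 hypoxia and glycolysis transcripts Ndrg1 passed, with medians over the list of 0.01 with Clock/Bmal1 and -0.17 with Clock/Bmal1DN.

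No immediate early gene passed (28 tested, with 12 higher at an unadjusted p under 0.05, against 5.32% of all transcripts). In 18 of the 28 the clones did not overlap and were higher with Clock/Bmal1, against 18.9% of all transcripts, and in 6 they were apart by at least 1 log2 unit, against 2.14% (Nr4a3, Egr2, Egr4, Atf3, Klf10 and Maff). Nr4a3, an orphan nuclear receptor, stood at 23.7 and 11.01 CPM with dox against 0.317 and 0.0725 CPM untreated with Clock/Bmal1, and at 0.0467 and 0.143 CPM with dox against 0.0230 and 0.151 CPM untreated with Clock/Bmal1DN. Only its treated Clock/Bmal1 libraries exceeded 1 CPM, and the others rest on few counts. Its difference, 6.40 ± 0.830 (edgeR adjusted p = 0.0523), is thus poorly fixed in size. Fos had no such difference (0.01 ± 0.406). The list's medians were 0.50 with Clock/Bmal1 and -0.21 with Clock/Bmal1DN. Several of these genes, Maff and Klf10 among them, were highest in the Clock/Bmal1DN line in untreated clone 6, the library with the highest feeder markers, and the part of feeder RNA in their values was not tested. The 22 feeder genes themselves had medians of 0.08 with Clock/Bmal1 and -1.26 with Clock/Bmal1DN, and no difference passed. At an unadjusted p under 0.05 in edgeR 2 were higher, against 5.32% of all transcripts.

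Primed pluripotency and early differentiation genes had mostly negative differences. None of 21 passed. At an unadjusted p under 0.05 in edgeR 7 were lower and 3 higher, against 1.63% and 5.32% of all transcripts. Clones that did not overlap were lower with Clock/Bmal1 in 12 members and higher in 4, against 16.8% and 18.9% of all transcripts. The medians were -0.53 with Clock/Bmal1 and 0.11 with Clock/Bmal1DN. Tdgf1, a Nodal co-receptor, stood at 293 and 433 CPM with dox against 717 and 690.5 CPM untreated with Clock/Bmal1, and at 575 and 648 CPM with dox against 571 and 517 CPM untreated with Clock/Bmal1DN. The Nodal antagonists Lefty1 and Lefty2 had positive differences of 1.24 ± 0.316 and 1.31 ± 0.2498 (edgeR adjusted p = 0.356 and 0.166). Naive pluripotency genes had medians of -0.12 with Clock/Bmal1 and -0.06 with Clock/Bmal1DN, and none of 24 passed. At an unadjusted p under 0.05 in edgeR 4 were higher and 1 lower, against 5.32% and 1.63% of all transcripts.

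**Figure D4:**
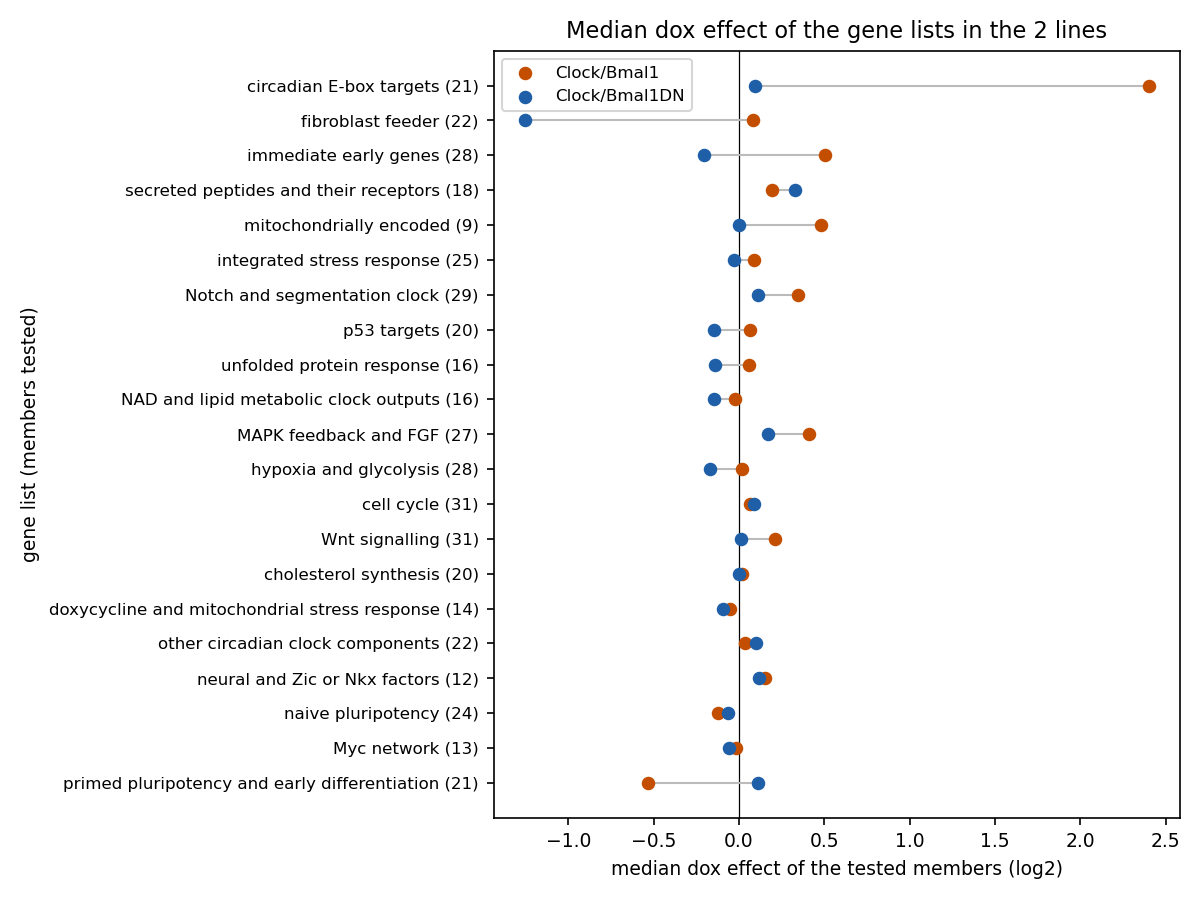
Median dox effect (log2) of the tested members of each gene list in the Clock/Bmal1 clones (orange) and the Clock/Bmal1DN clones (blue), in order of the median difference between the lines. The circadian E-box targets stand at 2.40 and 0.09, the fibroblast feeder genes at 0.08 and -1.26, and most other lists lie near 0 in both lines.

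The same difference was computed in the iPSM colonies, whose libraries and clones took no part in the ESC calls, at another dose and time. There 104 of 20942 transcripts passed, all higher with Clock/Bmal1 (0.497%), and none was lower by edgeR, with 860 at an unadjusted p under 0.05. All 16 ESC genes were tested in iPSM and had a positive difference there (46.9% of all transcripts did), and 14 of the 16 passed (87.5% of the ESC calls and 13.5% of the 104). The iPSM difference was 5.73 ± 0.640 for Hlf (edgeR adjusted p = 0.00299) and 5.01 ± 0.315 for Ndrg1 (0.000279), while Dbp gave 3.47 ± 0.285 (0.00103) and Nr1d1 4.35 ± 0.451 (0.00224). Spib and Garem2 did not pass, at 0.47 ± 0.777 (edgeR adjusted p = 1.0) and 2.53 ± 0.646 (edgeR adjusted p = 0.245). For Spib the iPSM clones mixed, with effects of -0.07 and 0.72 with Clock/Bmal1 and 0.60 and -0.54 with Clock/Bmal1DN. The fitted Clock/Bmal1DN effect was -2.43 in ESC and -0.40 in iPSM for Dbp, -2.19 and -0.42 for Hlf, and -1.70 and 0.08 for Nr1d1. These genes were sorted as opposite by their negative ESC effect, so the smaller iPSM values cannot be read as a contrast between cell types. That contrast was not tested for this effect alone.

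From the other side, 102 of the 104 iPSM calls were tested in ESC, where 99 had a positive difference (97.1%, against 52.8% of all transcripts) and 89 were higher at an unadjusted p under 0.05 (87.3%, against 5.32%). In 1 fit of 16 libraries the ESC difference minus the iPSM difference passed for none of 22814 transcripts by edgeR (0%), with 859 at an unadjusted p under 0.05. Among the 16 genes Trpm1 came closest, at 3.49 ± 0.583 (edgeR adjusted p = 0.566), from differences of 5.37 in ESC and 1.86 in iPSM. Spib gave 4.57 ± 0.825 (edgeR adjusted p = 0.723). A pass in ESC without one in iPSM is thus not shown to be a difference between the cell types.

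**Figure D5:**
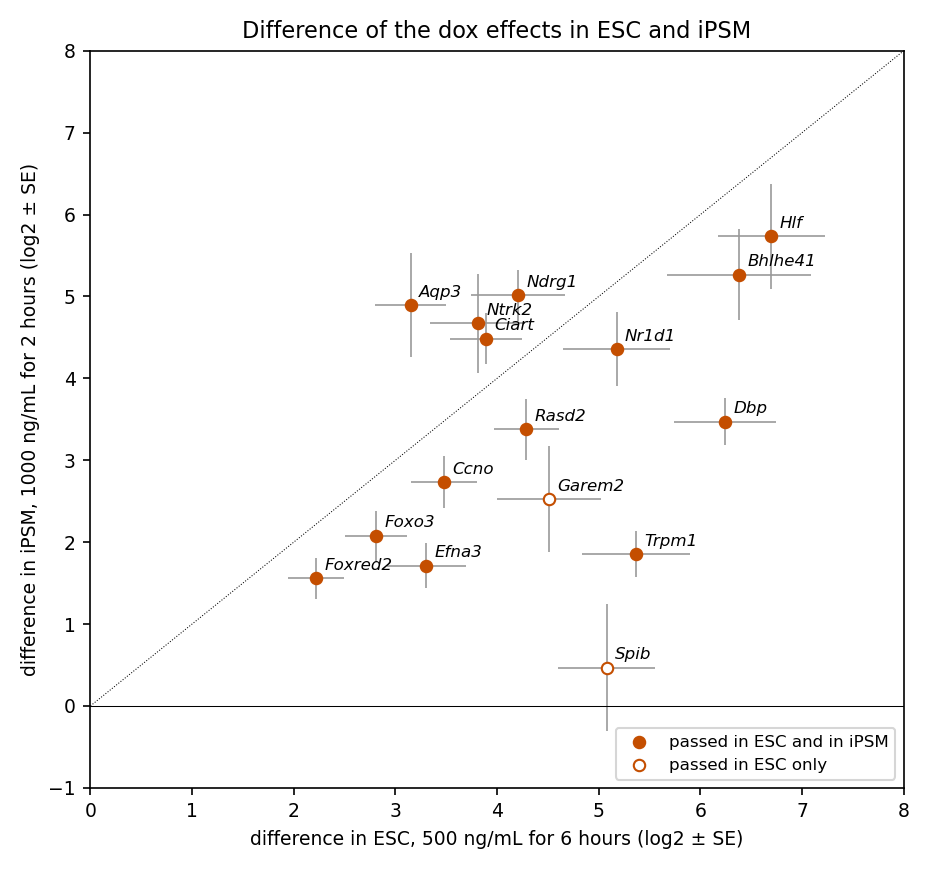
Difference of the dox effects (Clock/Bmal1 minus Clock/Bmal1DN, log2 ± SE) of the 16 genes in ESC on the horizontal axis and in iPSM on the vertical axis, with equal values on the dotted line. All points lie above 0, filled for the 14 that passed in both cell types and open for Garem2 and Spib.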

How the data were processed

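RNA of 20 libraries was analysed, and the 8 ESC libraries of the Clock/Bmal1 and Clock/Bmal1DN clones gave the comparisons. Per the labels' protocols, stranded total-RNA libraries were read as paired ends, and per the submitters' processing notes bcl2fastq, STAR 2.7.2a and HOMER were used with mm10. The deposited tables hold expected counts (in steps of 0.5) per gene body of 55421 transcripts, and the authors' RPKM values of the same counts, which were used only as a check: 100% were recomputed from the counts within 1% plus 0.001 RPKM. Counts ending in 0.5 (16.9% in ESC) were rounded.

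With edgeR 4.0.16 in R 4.3.3 (TMM, filterByExpr by group, glmQLFit, glmQLFTest, two-sided, Benjamini-Hochberg over all transcripts), each clone had its own term, and the dox effect of each line and their difference were tested, with 2 residual degrees of freedom. Pairing comes from the labels, since both libraries of a number are of 1 clone. Deviations from the group means of same-numbered libraries correlated at 0.487 (Clock/Bmal1) and -0.0206 (Clock/Bmal1DN). The control line has 1 library per treatment and no test. SE is the log2 value divided by the square root of F, and intervals are 95%. F uses a spread moderated over all transcripts, with 6.18 prior degrees of freedom beside the 2 residual ones. CPM values are counts over TMM-normalised library totals. Counts of 40.3 to 57.3 M per ESC library leave levels under 1 CPM resting on the fewest reads. The method was tested on simulated data without differences between clones, so that test cannot show how it behaves where clones respond unequally. DESeq2 1.42.0 was an alternative, beside other filters, scalings, designs and left-out clones. Promoters are RefSeq's.

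The genes named are Clock, Arntl, Per1, Per2, Lfng, circadian targets that passed, the 15 highest differences that passed with separated clones and at least 1 CPM in a group, up to 8 opposite and 8 shared genes in each direction, up to 4 members that passed from each other list, and 2 genes on either side of the threshold. Members, lists and rule were chosen with earlier results of these data known. Of the named genes, Ntrk2, Trpm1 and Clock overlap other annotated transcripts.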

Additional observations from a re-analysis of the deposited data

Results flagged for a closer look

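The dox effect differed between the Clock/Bmal1 and Clock/Bmal1DN lines of ESC by a test of the difference itself (edgeR, adjusted p under 0.05) in 16 transcripts, all with a higher effect with Clock/Bmal1. Among clock genes the log2 differences were 6.70 for Hlf, 6.38 for Bhlhe41, 6.24 for Dbp, 5.17 for Nr1d1 and 3.89 for Ciart. Among signalling genes and receptors they were 4.51 for Garem2, 4.29 for Rasd2, 3.81 for Ntrk2 and 3.31 for Efna3. Transcription factors outside the clock were Spib, with 5.08, and Foxo3, with 2.81. The channels Trpm1 and Aqp3 had 5.37 and 3.15, and Ndrg1, Ccno and Foxred2 had 4.21, 3.48 and 2.22. Each of the 16 showed its direction in 2 of 2 clones of the Clock/Bmal1 line against both clones of the other line. Clones stood in that order in 18.9% of all transcripts. Since the 16 were called on the same difference, the order describes the calls and adds no support to them.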

How the results depend on the processing

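All 16 differences stayed positive, at an unadjusted p under 0.05, under every ESC alternative run, and all 16 calls were kept with all 10 ESC libraries, DESeq2's size factors, DESeq2, no filter on low counts and robust estimates. Counts moved more: 25 higher with all 10 libraries, 26 with robust estimates, 172 higher, 4 lower, 52 opposite and 37 shared with DESeq2, 498, 26, 142 and 145 with no filter, and 8 higher and 5 opposite with a mean of at least 1 CPM (8 of the 16 kept, adjusted p up to 0.0731). In the fit without the replicate block 13 were higher and 5 opposite, with 11 of the 16 kept. Leaving out 1 clone gave 0 to 1081 higher, 0 to 159 lower, 0 to 297 opposite and 2 to 1660 shared: 0 higher without Clock/Bmal1 clone 1 or 7, 270 without Clock/Bmal1DN clone 6 and 1081 without clone 5. Such fits keep 1 clone in an arm and assume that it varies like the rest. A smallest effect of 1 left 3 opposite genes, and no minimum ratio gave 14 shared. Leaving out 1 clone moved the difference of Arntl between -0.54 and 1.15, negative without Clock/Bmal1 clone 7 (-0.05) and Clock/Bmal1DN clone 5, and that of Clock between -1.56 and 0.55, positive without Clock/Bmal1DN clone 6. The cause of these shifts was not tested. In iPSM the fit without the replicate block called 52 transcripts higher and 0 lower, with 11 of the 16 among them. Leaving out 1 iPSM clone kept 15 or 16 of the 16 differences positive, depending on the clone. The number of transcripts called in iPSM moved far between those fits. Without Clock/Bmal1 clone 12 or clone 20, transcripts were called lower too. The 104 higher and 0 lower in iPSM thus belong to the main fit. Depth limits levels under 1 CPM, such as untreated Hlf, Spib and Bhlhe41.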

Other observations

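The differences of Zic1, Nmu and Nkx1-1 missed the threshold, and these genes were chosen after their values were seen. Over their lists, 2 of 12 neural factors and 3 of 18 secreted peptides and receptors were higher at an unadjusted p under 0.05 (5.32% of all transcripts), and the median differences were -0.11 and 0.49. Zic1, a zinc-finger factor of neural and somite cells, stood at 2.20 and 4.19 CPM with dox against 0.176 and 0.489 CPM untreated with Clock/Bmal1, and at 0.117 and 0.143 CPM with dox against 0.368 and 0.281 CPM untreated with Clock/Bmal1DN. It was thus highest in treated Clock/Bmal1 libraries, with a difference of 4.62 ± 0.658 (edgeR adjusted p = 0.0678). The treated Clock/Bmal1DN libraries were the lowest, but like the untreated ones they were under 1 CPM and rest on few counts. By DESeq2 the Clock/Bmal1DN effect of Zic1 did not pass (-1.32, adjusted p = 0.9998). Nmu, which encodes the neuropeptide neuromedin U, held 398 and 176 counts with dox against 3 and 7 untreated with Clock/Bmal1, and 2 and 5 counts with dox against 2 and 0 untreated with Clock/Bmal1DN. Nmu rose with Clock/Bmal1 (edgeR adjusted p = 0.00851), while its difference rests on so few Clock/Bmal1DN counts that no fold is given. Nkx1-1, a homeobox factor, held 123 and 96 counts with dox against 1 and 2 untreated with Clock/Bmal1, and 2 and 5 counts with dox against 13 and 4 untreated with Clock/Bmal1DN.

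No member passed in the lists of Wnt signalling, the Myc network, neural factors, secreted peptides, the integrated stress response, the unfolded protein response, p53 targets, the cell cycle, NAD and lipid metabolism, cholesterol synthesis, two-cell-like genes, mitochondrially encoded genes and the doxycycline response. Each of these held 0 to 5 members with a higher and 0 to 2 with a lower effect at an unadjusted p under 0.05 in edgeR. Over all transcripts those shares were 5.32% and 1.63%, and the lists had from 1 to 31 members tested. Higher members were 5 of 25 in the integrated stress response, 4 of 16 in NAD and lipid metabolism and 0 of 20 in cholesterol synthesis, with 0 lower in each. The Myc network had 2 of 13 higher and 2 lower. Ccnd2, a cyclin of the cell cycle list, had a difference of 2.25 ± 0.422 (edgeR adjusted p = 0.159), with 15.4 CPM with dox against 51.4 CPM untreated in Clock/Bmal1DN clone 6, where feeder markers were also lower with dox; the part of feeder RNA was not tested.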
